A study of Mus musculus with 6 samples.

Results

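The 79 genes described here encode proteins of the cytosolic ribosome and were counted in single cells of the fetal mouse small intestine. They are every gene symbol made of Rpl or Rps, a number and at most 1 further letter, together with Rpsa, Rplp0, Rplp1 and Rplp2. They are 79 of the 24568 symbols in the deposited matrix. The rule uses symbols alone and no measured value, but it was set with earlier results of these data known. Of the 79, 48 belong to the large subunit by name and 31 to the small subunit.

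The cytosolic ribosome joins a small subunit, which reads the messenger RNA, to a large subunit, which forms the peptide bond. Its protein genes are spread over the genome, are among the most abundant messages of a dividing cell and are made in step with one another. Many of these messages begin with a run of pyrimidines at the 5′ end, the terminal oligopyrimidine tract, through which their translation responds to growth signalling. In the fetal intestine, mesenchyme and epithelium proliferate, and the mesenchyme next to the epithelium forms clusters of cells with high Pdgfra, the receptor for platelet-derived growth factor A.

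The study profiled small intestines of Pdgfra-H2BGFP embryos, which carry a nuclear green fluorescent reporter of Pdgfra, on a strain given as C57/BL6, and every group carries this reporter. There were 6 samples in 4 groups: all live cells (2 samples) and enriched cells (1 sample) of embryonic ages E15.5 and E16.5, and the same kinds (2 and 1 samples) of E13.5, E14.5 and E18.5. Live cells were DAPI-negative and Ter119-negative. Enriched cells were positive for CD31, CD45 or Epcam, or high in PDGFRa GFP, so this gate sets which cells a sample can hold. Replicate embryos were pooled (4 at E13.5, 3 at E14.5, and 2 at each of E15.5, E16.5 and E18.5), and intestines were cut into 2.5 mm segments marked with lipid barcodes. The matrix pools all samples. Its 6 barcode suffixes are named here A1, A2 and A3 (ending _1) and B1, B2 and B3 (ending _2). No label ties a suffix to a sample or an age, so the 6 sets are technical sets and not the study's groups. The matrix is then 1 sample without replicates, no test between conditions exists, and every interval below covers counting error only.

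Of 13127 cells, 12688 had at least 1000 genes and at most 5% mitochondrial UMIs (unique molecular identifiers, 1 per captured transcript) and were kept, 1185 to 2518 per set. The median depth was 7073 to 13588 UMIs per cell in ending A and 3553 to 4189.5 in ending B. In 22 cases the same barcode bases occurred in more than 1 set, 19 of them across the endings. The mesenchyme marker Col1a1 was counted in every set, at 1541 to 2786 CPM (counts per 1000000 summed UMIs) in A1, A2, B1 and B2, 650.0 CPM in A3 and 833 CPM in B3. A3 and B3 stood apart from the other sets of their ending: 83.8% of cells in each had 3 or more UMIs of a 12-gene PDGFRA panel among 2000 drawn, against 17.4% to 35.6% in the other 4 sets. Epcam, an epithelial marker, was at 87.7 CPM in A3 and 29.9 CPM in B3 against 11.4 to 14.5 CPM elsewhere. Ptprc, which encodes CD45, was low but also highest in the third set of each ending. It was at 0.611, 1.25 and 7.67 CPM in A1 to A3 and at 2.66, 1.16 and 3.39 CPM in B1 to B3. Pecam1, which encodes CD31, was at 1.93, 1.67 and 11.5 CPM in A1 to A3 and at 9.25, 9.79 and 26.1 CPM in B1 to B3. Haemoglobin and Alas2 transcripts summed to 1846, 1786 and 3700 CPM in B1, B2 and B3 and to 25.4 to 36.3 CPM in ending A.

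Sequences at the annotated start of transcription are given first for the members on which the results turn: Rpl35, Rps28 and Rpl27a, which departed from the other members in A3 or B3; Rpsa, Rplp0 and Rps2, which were low in A3; Rps27 and Rpl38, 2 of the members that differed between A1 and A2; and Rpl13a, which differed between the endings. Each window runs from 10 bases before the start to 20 bases from it on, 5′ to 3′ on the gene's strand, from RefSeq for GRCm38.p6. Capitals mark the longest unbroken run of C and T.
Rpl35: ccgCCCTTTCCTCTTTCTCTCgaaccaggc
Rpl27a: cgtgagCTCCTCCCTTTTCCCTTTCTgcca
Rps28: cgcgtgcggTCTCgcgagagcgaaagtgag
Rpsa: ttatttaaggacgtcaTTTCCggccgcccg
Rplp0: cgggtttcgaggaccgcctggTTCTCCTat
Rps2: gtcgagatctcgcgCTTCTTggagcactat
Rps27: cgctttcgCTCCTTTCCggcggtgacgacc
Rpl38: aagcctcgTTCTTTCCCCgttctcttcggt
Rpl13a: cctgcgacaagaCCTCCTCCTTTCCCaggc

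The windows lie at chr2:39005112-39005141 (minus strand) for Rpl35, chr7:109519185-109519214 (plus) for Rpl27a, chr17:33824543-33824572 (minus) for Rps28 and chr9:120127756-120127785 (plus) for Rpsa. Those of Rplp0, Rps2 and Rps27 lie at chr5:115559457-115559486 (plus), chr17:24720053-24720082 (plus) and chr3:90213629-90213658 (minus). Those of Rpl38 and Rpl13a lie at chr11:114668570-114668599 (plus) and chr7:45128726-45128755 (minus). In Rpl35 and Rpl27a the run was 18 and 20 bases long and spanned the annotated start, and in Rps28 it was 4 bases. The table held 71 start sites for 59 of the members. The longest run in the 30-base window was at least 8 bases at 32.4% of these sites and at 11.2% of all 32851 sites, and its median was 6 against 4 bases. The letters CTTTCC, on either strand of the 300 bases from 250 before to 50 after the start, were present at 49.3% of member sites and 26.6% of all sites. CCGGAAG, searched in the same way, was present at 36.6% and 8.86%. These are matches of letters and not binding sites.

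The members made up 22.2% of all UMIs in the kept cells. All 79 were counted in both endings, and 77 reached 20 CPM, the minimum used below. UMIs were counted at transcript 3′ ends, so levels are molecules captured and were not divided by length. Averaged over the 6 sets, 74 members were at or above 1000 CPM and the median member was at 2717 CPM. The 5 highest held 13.3% of the members' UMIs. Among them were Rpl41 of the large subunit at 7071 CPM, Rps29, a zinc-binding protein of the small subunit, at 6565 CPM, and Rpl6 and Rpl13 of the large subunit at 5206 and 5183 CPM. Rpl41, the smallest ribosomal protein, is encoded on the minus strand of chromosome 10 (chr10:128548114-128549305, GRCm38). Its whole coding sequence is 78 bases with the stop codon, and 17 of its 25 codons encode lysine or arginine. It is shown because coding length orders several of the differences below, and capitals mark the start and stop codons.
Rpl41: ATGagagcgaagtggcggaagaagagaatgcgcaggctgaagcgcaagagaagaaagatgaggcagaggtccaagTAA

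Copies of ribosomal protein genes stood apart from their parents. Rpl3l, the striated-muscle paralogue of Rpl3, had 1 to 3 UMIs per set, and Rpl39l, a paralogue of Rpl39 known from male germ cells, had 1 to 7. Rpl3 was at 1208 to 2255 CPM and Rpl39 at 2767 to 7209 CPM in the same sets. Rps27l, a paralogue of Rps27 known as a p53 target, was expressed in every set, at 355 to 471 CPM against 1779 to 4234 CPM for Rps27. The tested member next above it was Rpl4 at 793 CPM.

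The third set of each ending had the lowest ribosomal protein share of that ending. The members held 21.1% of UMIs in A1, 21.2% in A2 and 17.3% in A3. In ending B the share was 27.3% for both B1 and B2, and 22.5% for B3. The first and second sets were nearly equal, and the third was lower by a similar factor in both endings. On the log2 scale A3 over A1 and A2 was -0.29 (95% interval -0.293 to -0.288), and B3 over B1 and B2 was -0.28 (-0.283 to -0.279). A2 over A1 was 0.0018 and B2 over B1 was -0.0010. Single cells varied far more than counting gives: the SD of the share over cells was 2.71 to 4.56 percentage points, against 0.374 to 0.703 from counting alone. The ranges from the 25th to the 75th percentile of cells in A1 (19.6% to 23.1%) and A3 (13.8% to 19.4%) did not overlap, and those of B1 (24.27% to 30.47%) and B3 (20.06% to 25.02%) did. The large subunit held 1.24 to 1.31 times the UMIs of the small subunit in every set, so both subunits were lower together.

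**Figure D1:**
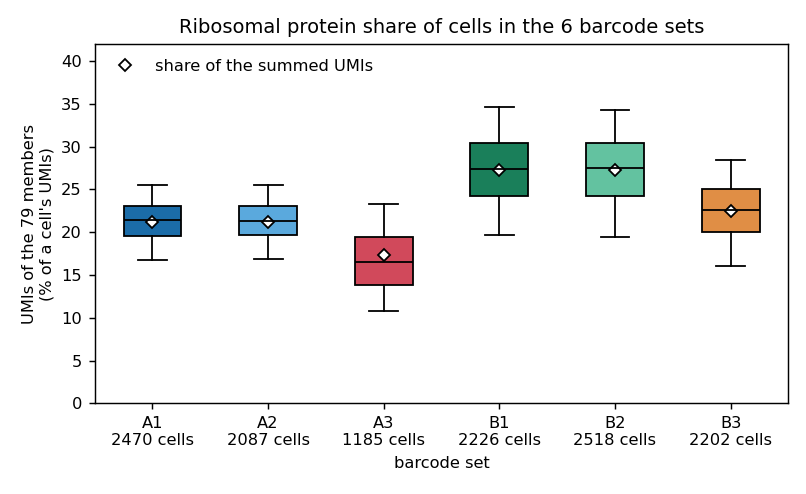
Share of each cell's UMIs (percent) from the 79 ribosomal protein genes in the 6 barcode sets. Boxes give the 25th to 75th percentiles of cells with the median line, whiskers the 5th to 95th percentiles, and diamonds the share of the summed UMIs, which is 17.3% in A3 and 22.5% in B3.

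A share is relative to the other transcripts of the cell, and several of these moved with the third sets. Malat1, an abundant nuclear RNA, was at 48284 CPM in A3 against 15198 and 13067 CPM in A1 and A2, and at 61213 CPM in B3 against 36308 and 37404 CPM in B1 and B2. With Malat1 taken out of the total, an alternative chosen after the data were seen, the differences were -0.24 in both endings. Mitochondrial transcripts were 31866 CPM in A3 and 29845 CPM in B3, against 21874 to 27249 CPM in the other 4 sets. The 5 enterocyte transcripts (Fabp1, Fabp2, Apoa1, Apoa4 and Rbp2) summed to 2325 CPM in A3, 472 to 491 CPM in A1 and A2 and 31.96 to 55.61 CPM in ending B. Smooth muscle transcripts were lower in the third sets, at 550 CPM in A3 against 1517 and 1572 CPM in A1 and A2 and at 227 CPM in B3 against 1106 and 1091 CPM in B1 and B2. Col1a1 was lower there too, and the haemoglobin and Alas2 sum was higher in B3, as given above. The part of all these transcripts in the difference was not tested beyond leaving Malat1 or mitochondrial transcripts out of the total. Without mitochondrial transcripts the differences were -0.28 in A3 and -0.27 in B3.

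Cells of A3 and B3 were also less often in cycle and more often rich in the PDGFRA panel, and the difference was therefore taken within such classes. Among cells with no UMI of a 21-gene cycling panel, after 2000 UMIs per cell were drawn, the members held 21.97% in A1, 21.99% in A2 and 16.5% in A3, a log2 ratio of -0.41. The same cells of ending B gave -0.29. Among cells with 3 or more cycling UMIs the ratio was -0.15 in ending A and -0.31 in ending B. In cells with 3 or more PDGFRA-panel UMIs it was -0.33 and -0.22, and in cells with 0 or 1 it was -0.11 and -0.27. The third set was lower in each of these classes. The sizes in ending A differed between classes, and only 108 cells of A3 and 169 of B3 had 0 or 1 panel UMIs.

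Gene by gene, nearly all members shared the direction. In A3, 70 of 77 members were below A1 and A2, where 53.4% of all 7421 genes tested were below 0, and 17 were lower by 0.5 log2 or more, where 20.0% of all genes were. The member median was -0.33 and that of all genes -0.05. In B3, 73 of 77 were below B1 and B2 (41.7% of all genes) and 5 were lower by 0.5 or more (13.6%). The medians were -0.26 and 0.12. A total of 68 members were below 0 in both endings, where 35.7% of all genes were. No member was higher by 0.5 in either, where 1434 of 7421 genes were in A3 and 1588 of 6416 in B3. The 25th to 75th percentiles in A3 were -0.43 to -0.20 for members and -0.41 to 0.34 for all genes. In B3 they were -0.38 to -0.14 and -0.25 to 0.49. Member ratios ran from -0.81 to 0.27 in A3 and from -0.82 to 0.27 in B3. Large and small subunit members had medians of -0.33 and -0.33 in A3 and of -0.24 and -0.26 in B3.

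Within the small subunit, Rpsa and Rps2 were low in both A3 and B3. Rpsa, which is also known as the laminin receptor, was at 3908, 4073 and 2348 CPM in A1, A2 and A3 and at 4348, 4130 and 2735 CPM in B1, B2 and B3. The log2 ratio was -0.76 (-0.784 to -0.744) in A and -0.63 (-0.651 to -0.609) in B. Rps2, a protein near the channel through which messenger RNA enters, was at 2841, 3660 and 1887 CPM in A and 2885, 2806 and 2029 CPM in B, ratios of -0.78 and -0.49. Rps2 is named for its values and falls outside the rule for named genes. Both genes were lowest in the third set of each ending.

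The P stalk of the large subunit, formed by Rplp0, Rplp1 and Rplp2, recruits the elongation factors. Rplp0, its base, was at 3636, 3869 and 2144 CPM in A1, A2 and A3, the lowest ratio of all members in A at -0.81 (-0.827 to -0.785). In B it was at 3014, 2836 and 2173 CPM, a ratio of -0.43. The stalk's other two genes were closer to the member medians. Rplp1 was at 3107, 3444 and 2830 CPM in A and 4893, 4877 and 4041 CPM in B (-0.21 and -0.27). Rplp2 was at 2372, 2221 and 1807 CPM in A and 3160, 3015 and 2231 CPM in B (-0.35 and -0.47). All 3 were lowest in the third set of both endings.

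Few members left the common trend, defined as a log2 ratio at least 0.5 from the member median. In A3 the only one was Rps28, a small protein of the small subunit, where 43.6% of all genes were that far from the member median. It was at 2986, 2310 and 3199 CPM in A1, A2 and A3, a ratio of 0.27 (0.248 to 0.283) that lay 0.59 above the median. A1 and A2 differed in Rps28 itself, and the call ended when A2 was left out. Against A1 alone Rpl35 and Rpl27a left the trend instead (background 41.0%), and against A2 alone 12 members did (48.1%). In B, Rps28 followed the other members, at 6121, 6582 and 5382 CPM.

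In B3, Rpl35 and Rpl27a left the trend, where 48.6% of all genes were that far from the member median. Rpl35, which sits near the exit of the peptide tunnel, was at 1401, 1337 and 773 CPM in B1, B2 and B3, a ratio of -0.82 (-0.862 to -0.784). In A it was at 1937, 944 and 1097 CPM, so A3 was low against A1 and not against A2. Rpl27a was at 4695, 4717 and 5666 CPM in B and at 2953, 3207 and 3449 CPM in A, ratios of 0.27 (0.252 to 0.283) and 0.17 (0.149 to 0.183). It was the only one of the 77 that was highest in the third set of both endings. In A it lay 0.49 above the member median, just under the threshold, and in B 0.52 above it. No member passed the threshold with the same sign in both endings, but few passed it in either, so little overlap was possible. From the medians, 44 of 77 deviated with the same sign. No share over all genes was taken for either count, so neither is read as a result about the members. The order of the members' ratios was weakly shared between endings, with a Spearman rho of 0.17 over 77 genes.

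**Figure D2:**
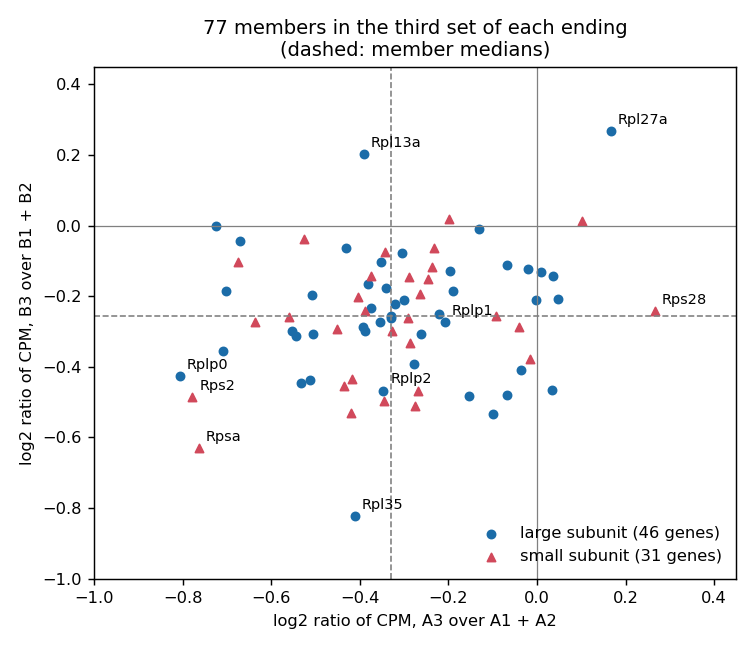
Log2 ratios of CPM for 77 members in A3 over A1 and A2 (horizontal) and in B3 over B1 and B2 (vertical), with circles for the large and triangles for the small subunit and dashed lines at the member medians of -0.33 and -0.26. Most genes lie below 0 on both axes, Rpl35 is the lowest in ending B, and Rpl27a is the highest there.

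Ribosome biogenesis and mitochondrial ribosome genes were mostly lower in the third set of both endings, and translation factors mostly in that of ending A. Of 25 tested ribosome biogenesis genes, 25 were below 0 in A3 and 16 were lower by 0.5 or more (median -0.78). In B3, 19 of 21 were below 0 and 12 were lower by 0.5 or more (median -0.60), a larger difference than that of the members in both endings. Ncl, which encodes nucleolin, went from 1237 CPM in A1 and A2 to 822 CPM in A3, and from 930 CPM in B1 and B2 to 587 CPM in B3. Of 23 translation factors, 23 were below 0 in A3 (median -0.48) and 12 of 23 in B3 (median -0.01). Eef1a1, the elongation factor that delivers aminoacyl-tRNA, had ratios of -0.43 and 0.10. Mitochondrial ribosome genes had medians of -0.30 (72 of 77 below 0) and -0.25 (61 of 72).

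Within each set, cells in cycle were compared with cells outside it. Cells with 3 or more cycling UMIs of 2000 had a slightly lower share of ribosomal protein UMIs than cells with none in 5 of the 6 sets. The shares were 20.7% against 21.97% in A1, 20.8% against 21.99% in A2, 26.5% against 27.6% in B1, 26.6% against 27.6% in B2 and 21.3% against 22.6% in B3. A3 went the other way, with 18.7% in 215 cycling and 16.5% in 438 non-cycling cells. The pooled log2 ratio was -0.08 (-0.087 to -0.082) in A1 and A2 and -0.06 (-0.061 to -0.055) in B1 and B2. Malat1 differed between the same classes, at 1.29% of UMIs in cycling and 1.91% in non-cycling cells of A1 and A2 and at 3.01% and 4.56% in B1 and B2, and its part was not tested. When classes were drawn from all UMIs of a cell, without thinning to 2000, the direction reversed to 0.04 and 0.02, and a class then also depends on depth. Under thinning, too, cycling cells were deeper than non-cycling cells in all 6 sets. Their median UMIs were 14350 against 8421.5 in A1, 11618 against 6682 in A3 and 5464 against 3770 in B1. The part of depth in the cycling differences was not tested. A total of 1377 cells had 2 cycling UMIs and 760 had 3, next to the threshold.

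The dependence on cycling was not monotonic. Cells with 1 or 2 cycling UMIs were at or slightly above cells with none in all 6 sets, with log2 ratios of 0.0010 in B3 to 0.045 in A3. In B1 and B2 the share was highest at 4 cycling UMIs, 29.2% in 73 cells of B1 and 29.5% in 87 cells of B2. Cells with 6 or more were at 20.2% in A1, 20.3% in A2 and 25.7% in both B1 and B2. Splitting the panel after the data were seen, cells with 3 or more UMIs of its 8 S-phase genes and none of its 13 mitotic genes were above non-cycling cells in all 6 sets, by 0.0080 in A2 to 0.10 in B1 and by 0.36 in A3, which had 17 such cells. Cells with 3 or more mitotic and no S-phase UMIs were lower by -0.12 in B2 to -0.19 in A2 in 5 sets, and higher by 0.10 in A3, which had 37. Among cells with 0 or 1 PDGFRA-panel UMIs, all 6 sets, A3 included, had a lower share in cycling cells, with ratios from -0.060 to -0.14. In A3 this rested on 63 cycling and 19 non-cycling cells.

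**Figure D3:**
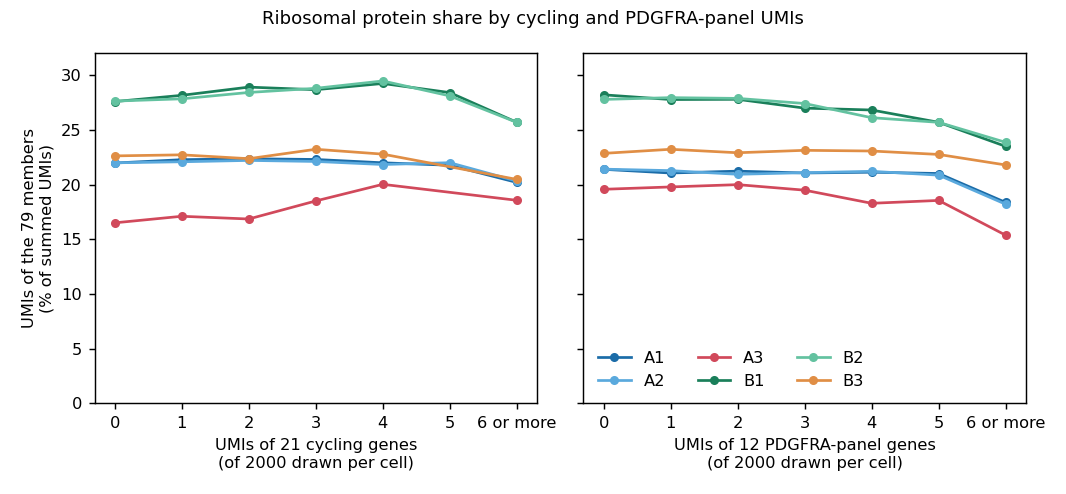
Share of summed UMIs (percent) from the 79 genes by the number of cycling-panel UMIs (left) and PDGFRA-panel UMIs (right) among 2000 drawn per cell, 1 line per set, with points of fewer than 20 cells left out. In A1, A2, B1, B2 and B3 the share is lowest at 6 or more cycling UMIs, and in all 6 sets it is lowest at 6 or more PDGFRA-panel UMIs.

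Per gene, 61 of 77 members were below 0 in cycling cells of A1 and A2 (48.9% of all genes) and 52 of 77 in those of B1 and B2 (50.7%). None differed by 0.5 log2 or more in either direction, while 24.6% and 21.3% of all genes did. The order of the members' ratios was nevertheless shared between the endings, with a Spearman rho of 0.79 over 77 genes, from different cells. The same rho over other genes was not taken, so the agreement is not shown to be particular to the members. Rpl10, which joins the large subunit late and is needed for subunits to join, was the lowest member in A, at 1729 CPM in cycling and 2071 CPM in non-cycling cells (-0.26). In B it was at 1058 and 1269 CPM (-0.26). Rpl27a was the lowest in B, at 4159 and 5261 CPM (-0.34), and was at 2994 and 3292 CPM in A (-0.14).

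Some members were slightly higher in cycling cells of both endings, none by 0.5 log2. Rpsa was the highest member in B, at 4486 CPM in cycling and 3908 CPM in non-cycling cells (0.20, 0.175 to 0.223), and was at 4028 and 3765 CPM in A (0.10, 0.078 to 0.118). Rps27l was the highest in A, at 387 and 331 CPM (0.23, 0.158 to 0.293), and was at 473 and 443 CPM in B (0.09). Rplp1 was at 3300 and 3109 CPM in A and at 5097 and 4594 CPM in B (0.09 and 0.15). Rps2, named for its values, was at 3276 and 3033 CPM in A and at 2975 and 2640 CPM in B (0.11 and 0.17). In all, 12 of 77 members were above 0 in both endings, where 40.0% of all genes were.

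Ribosome biogenesis genes behaved unlike the members in the same cells. Their summed share was 0.628% of UMIs in cycling and 0.468% in non-cycling cells of A1 and A2 (log2 ratio 0.42) and 0.435% and 0.349% in B1 and B2 (0.32). Nop56, a core protein of box C/D small nucleolar particles, had ratios of 0.85 and 0.77. The summed share of translation factors had ratios of -0.08 and -0.06, while their medians per gene were 0.01 and -0.08, with 12 of 23 and 11 of 23 above 0. Mitochondrial ribosome genes had summed ratios of 0.17 and 0.12.

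Cells rich in the PDGFRA panel had a lower ribosomal protein share than cells with 0 or 1 panel UMIs in all 6 sets. The shares were 20.8% against 21.2% in A1, 20.8% against 21.3% in A2 and 16.6% against 19.7% in A3. In B they were 26.0% against 28.0% in B1, 26.1% against 27.9% in B2 and 22.3% against 23.1% in B3. The difference was smallest in A1 (log2 ratio -0.026) and largest in A3 (-0.25). Restricted to cells with no cycling UMI, it was -0.086, -0.093 and -0.34 in A1 to A3 and -0.20, -0.17 and -0.046 in B1 to B3, where A3 had only 19 panel-low cells. Malat1 was higher in the panel-rich cells, at 1.61% against 1.36% of UMIs in A1 and A2, 5.35% against 2.85% in A3, 5.04% against 2.91% in B1 and B2 and 6.36% against 4.74% in B3, and its part was not tested. Panel-rich cells were also shallower in all 6 sets, with median UMIs of 6807 against 10854.5 in A3 and 11866 against 12222.5 in A1. The part of depth in the panel differences was not tested. In cells with 6 or more panel UMIs the share was 18.4% in A1, 18.2% in A2 and 15.4% in A3. Per gene, 66 of 77 members were below 0 in A1 and A2 (46.0% of all genes) and 71 of 77 in B1 and B2 (50.9%), with 64 below 0 in both (34.2%). Rps2 was the lowest member in both endings, at 3017 CPM in panel-rich and 3315 CPM in panel-low cells of A1 and A2 (-0.14) and at 2456 and 3083 CPM in those of B1 and B2 (-0.33). Rpl27a was the highest in B, at 5120 and 4457 CPM (0.20), and was nearly level in A, at 3086 and 3075 CPM.

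From cell to cell, the 2 subunits varied together. Cells were ordered by their large subunit share and cut into 4 equal parts, and the small subunit share was 7.99% in the lowest and 10.6% in the highest part of A1, 5.12% and 9.60% in A3 and 9.74% and 14.5% in B1. The Spearman rho between both shares was 0.89 to 0.96 within sets, over 1185 to 2518 cells. Both shares have the cell's total UMIs as denominator, so they are not independent. Each of the 77 members was higher in the 25% of cells with the highest share of the other members than in the 25% with the lowest, in each of the 6 sets. The same count over other genes was not taken, so it is not shown to be particular to the members. Rpl12, part of the stalk base, had the largest median log2 ratio over the sets, 0.73, but not the largest in each set. In A1 it was at 0.45 and Rpl37 at 0.59, and in A3 it was at 1.11 and Rpsa at 1.22. Rps27l had the smallest median, 0.15, with a ratio of 0.0088 in B3. The ribosomal protein share was lower in cells with more Malat1: from the lowest to the highest 25% of cells by Malat1 it went from 20.4% to 13.6% in A3 (rho -0.65), from 21.9% to 20.1% in A1 (-0.22) and from 29.7% to 24.1% in B1 (-0.49). Here too both shares have 1 denominator. Depth had rho values of -0.21 to 0.060 with the share in 5 sets and 0.40 in A3, where it was 15.0% in the shallowest and 19.5% in the deepest 25% of cells.

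Although A1 and A2 had the same total share, their members were not at the same levels. A total of 8 members lay 0.5 log2 or more below the member median in A2 over A1, and none above, where 1.13% of all genes were that far from it. Of the 77, 7 were lower by 0.5 or more in A2, where 0.668% of all 6737 genes were. Rpl35 had the largest ratio, at 1937 CPM in A1 and 944 CPM in A2 (-1.04, -1.06 to -1.02). It was followed by Rps29 at 6436 and 3630 CPM (-0.83), Rps27 at 3059 and 1779 CPM (-0.78) and Rpl38, a gene whose loss gives mice short tails, at 2864 and 1694 CPM (-0.76). Rps21 was at 3378 and 2205 CPM, Rpl39 at 4102 and 2767 CPM, Rpl37 at 3782 and 2602 CPM and Rpl37a at 3588 and 2581 CPM (-0.62 to -0.48). In A3 each of the 8 lay between its A1 and A2 level. In B2 over B1 no member left the trend (0.0175% of all genes did), and the ratios of the members ran from -0.23 to 0.11.

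All but Rpl35 of these 8 genes are short: their coding sequences, from GENCODE release M21 and without the stop codon, are 153 to 291 bases, and that of Rpl35 is 369. The members' coding lengths run from 75 to 1257 bases with a median of 453. The 11 members under 300 bases held 3.46% of UMIs in A1, 2.41% in A2 and 2.99% in A3, while the 68 longer ones held 17.7%, 18.8% and 14.3%. Of the 10 tested short members, 8 had a ratio below 0 in A2 over A1, and the exceptions were Rpl41 (0.02) and Rps27l (0.01). Of the 67 longer ones, 16 were below 0, as were 3127 of all 6737 genes tested. Short members had a median ratio of -0.55, and 190 other genes under 300 bases one of 0.05. Among these other genes, 10 (5.26%) were lower by 0.5 or more in A2, as were 12 of 399 (3.01%) with 300 to 450 bases, against 0.108% to 0.308% in each group of longer genes. Over the 77 members, Spearman's rho between coding length and the ratio of A2 to A1 was 0.51, and over 6550 other genes it was -0.20. All points of such a correlation share the same libraries. Which step of the experiment or of the processing separated A1 from A2 cannot be told apart in 1 pooled matrix.

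**Figure D4:**
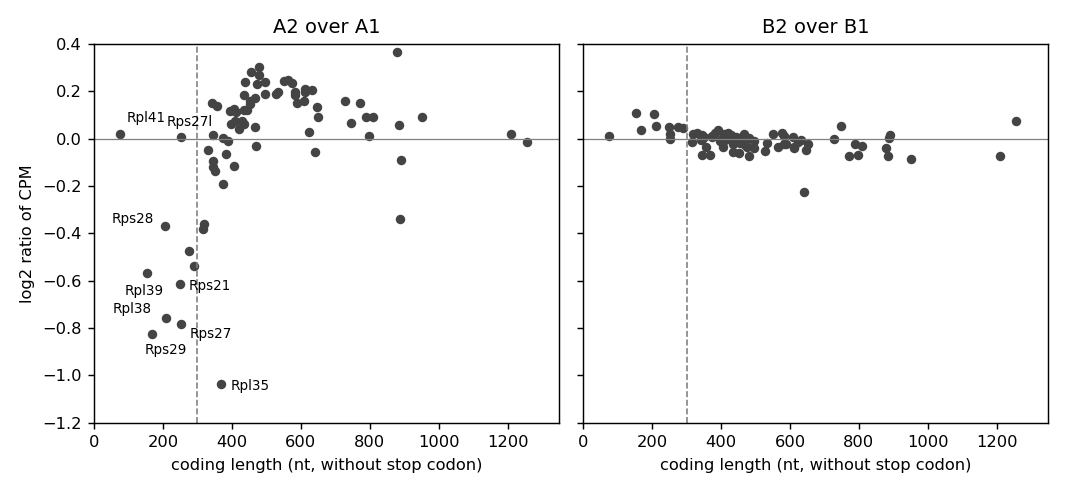
Log2 ratio of CPM for 77 members in A2 over A1 (left) and B2 over B1 (right) against coding length in nucleotides without the stop codon, with a dashed line at 300. On the left the short members except Rpl41 and Rps27l lie below 0, and on the right all members lie within -0.23 and 0.11.

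This difference touches the comparison of A3. The ratio of A3 to A1 had a rho of -0.48 with coding length over the members, and that of A3 to A2 one of -0.81. Over other genes the rho had the opposite sign, at 0.11 (7223 genes) and 0.15 (7222 genes). The summed share of the short members had a log2 ratio of -0.21 against A1 and 0.31 against A2, while that of the longer ones was at -0.31 and -0.39. The longer members therefore had a lower share in A3 whichever set it was compared with, and the short ones only against A1. In B3 over B1 and B2 the rho was 0.14 over the members and 0.20 over 6226 other genes, and the short members were at -0.32.

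The endings also differed in level and in depth, and they may rest on different gene lists. The members held more of the UMIs in B1 and B2 than in A1 and A2, by 0.37 on the log2 scale. A total of 23 members lay 0.5 or more from the member median of 0.21, where 63.2% of all genes did, 13 above and 10 below. Rpl13a, which is known to leave the ribosome to silence inflammatory messages, was at 2300, 2567 and 1852 CPM in A1 to A3 and at 279, 281 and 323 CPM in B1 to B3. Its ratio of -3.12 (-3.15 to -3.08) was the lowest, and that of Rpl3 (-0.85) was next. Rpl41 had the highest ratio, 1.47, from 4079 to 11322 CPM, followed by Rps28 at 1.26. The rho with coding length was -0.75 over the members and -0.26 over 6647 other genes. Rps27rt, a gene nearly identical to Rps27, was at 86.7 CPM in A1 and A2 and 1832 CPM in B1 and B2. Rps27 itself was also higher in B1 and B2 (0.78). Rpl13a-ps1, by name a copy of Rpl13a, had 1 UMI in B2 and 0 in the other sets. Reads of copies can be assigned differently by different annotations, and whether this bears on Rpl13a or Rps27 was not tested. Values of both are uncertain across endings, and embryonic age, library and gene list cannot be told apart.

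**Figure D5:**
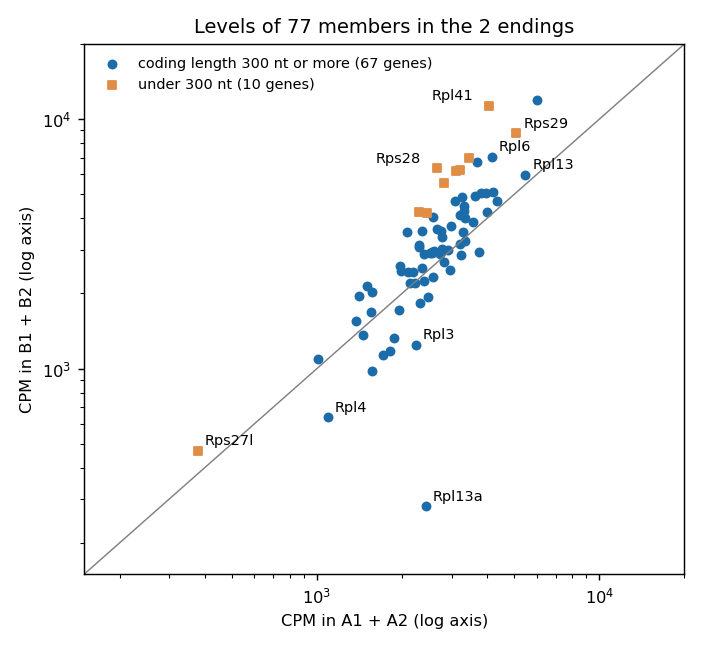
CPM of 77 members in A1 and A2 (horizontal) and in B1 and B2 (vertical) on log axes, with the line of equal level and with squares for coding sequences under 300 nucleotides. Rpl13a lies far below the line, and the short members lie above it.

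The order of the members' levels was nearly the same in B1 and B2 and less so in A1 and A2. Over 77 members, Spearman's rho of CPM was 0.998 between B1 and B2, 0.84 between A1 and A2, 0.94 between A1 and A3, 0.77 between A2 and A3, 0.97 between B1 and B3 and 0.92 between A1 and B1. Neighbours in the order of mean level, such as Rpl6 and Rpl13, changed places between sets: Rpl13 was above Rpl6 in A1, A2 and A3 and below it in B1, B2 and B3.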

How the data were processed

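The authors deposited 1 matrix of raw UMI counts per gene symbol and cell, in whole numbers per the file headers, and the submitters' processing notes name Cell Ranger 2.1.1, Seurat and the build mm10 without saying what each did. Per the labels' protocols, cells were barcoded by MULTI-seq and captured with 10x Chromium 3′ chemistry. Members and gene lists were chosen with earlier results of these data known. Cells with under 1000 genes (108) or over 5% mitochondrial UMIs (367) were left out. No doublet caller was run and no cell type was named. UMIs were summed over cells of a set or class and divided by the total. Ratios carry exact conditional binomial and shares exact Clopper-Pearson 95% intervals (scipy 1.17.1), with no count model since there are no replicates. The ratio intervals were checked on simulated data drawn with counting error alone, so the check does not cover variation between cells. Classes came from 2000 UMIs drawn per cell without replacement, leaving out 41 shallower cells. The named members are the 5 most abundant, those leaving the trend or most extreme, Rpsa, Rplp0, Rplp1, Rplp2, and the copies with their parents. Rps2, Rpl12, Rpl13a, Rpl4, the 8 members low in A2 and the genes named from other lists were chosen after their values were seen. A ratio with a count of 0 on 1 side used 3 counts there, for calls only. Lengths are from GENCODE M21. Some named members are not reported here.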

Additional observations from a re-analysis of the deposited data

How the results depend on the processing

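No paired analysis was possible because the samples' lane numbers are not tied to barcode suffixes. The lower share of A3 (log2 ratio -0.290 as reported) kept its direction in every alternative: -0.313 with no cell filter, -0.352 as a mean of per-cell shares, -0.282 without mitochondrial transcripts, -0.315 without the 5% of cells with most UMIs, and -0.414, -0.326 and -0.112 in non-cycling, panel-rich and panel-low cells. For B3 (-0.281) the same alternatives gave -0.290, -0.279, -0.270, -0.278, -0.288, -0.222 and -0.273, and adding other cytosolic ribosomal genes gave -0.271. Without Malat1 in the total, added after the data were seen, the values were -0.239 and -0.244. The cycling ratio of A1 and A2 (-0.085) was -0.069 as a mean over cells, -0.089 without mitochondrial transcripts, -0.078 without the deepest cells, -0.117 with 1000 UMIs drawn and -0.123 with Mki67 and Top2a alone. It reversed with unthinned classes (0.040) and in A3 alone (0.179). In B1 and B2 (-0.058) the values were -0.044 as a mean over cells, -0.062 with other ribosomal genes, -0.051 without the deepest cells, -0.104 with 1000 UMIs, -0.101 with Mki67 and Top2a and -0.084 in B3 alone, and 0.017, reversed, with unthinned classes. Members leaving the trend in A3 numbered 1 as reported, 0 at 1 log2, 3 with no CPM minimum, 2 in non-cycling cells, 12 without A1 and 2 without A2. In B3 they numbered 2, and 0, 4 and 1 under the alternatives of 1 log2, no minimum and non-cycling cells. The cause was not tested. Depth limits Rpl3l and Rpl39l, with 1 to 7 UMIs per set, for which no ratio is given.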

Other observations

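The genes that were low in A2 against A1 were not only ribosomal. Of 45 genes lower by 0.5 log2 or more, 7 were members of the ribosomal set, 7 were histone genes and 4 were mitochondrial transcripts; they are named here after their values were seen. Hist1h2ap, a replication-dependent histone gene, was at 783 CPM in A1 and 93.9 CPM in A2 (-3.06), and Hist1h2ae was at 522 and 199 CPM (-1.39). In B2 over B1 the ratios of both were above 0, at 0.30 and 0.13. The shares of cells with 3 or more cycling UMIs were 60.8% in A1 and 60.6% in A2.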
